A study of Mus musculus with 12 samples.

Results

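The response of control B cells to stimulation was taken from 6 of the 12 arrays of the series: 3 arrays of unstimulated cells and 3 arrays of cells after 4 h with what the labels call IgM. The arrays were chosen by title and carried replicate numbers 1 to 3 in both groups, which were used as pairs. All 6 arrays held RNA of splenic B cells sorted on B220, a surface protein of most mouse B cells, from mice of the genotype Foxp1wt/flox on a mixed 129/Sv-C57BL/6 background. One Foxp1 allele was thus wild type and the other carried the conditional (flox) form. The labels name no recombinase and do not say whether the flox allele was recombined, how old the mice were, or whether each replicate was its own animal or culture. The p-values below therefore reflect only the spread between these samples, which may be technical. They also do not say whether the stimulus was an antibody against IgM. FOXP1 is a forkhead transcription factor that lymphocytes express, and the other 6 arrays of the series held cells of the genotype Foxp1flox/del under the same 2 conditions.

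A resting B cell carries membrane IgM, which pairs with the signalling chains CD79A and CD79B to form the B cell receptor. When the receptor is cross-linked, Src-family kinases and SYK pass the signal to PLCG2, calcium, the MAP kinases, NF-kB and PI3-kinase. Immediate early transcription factors follow within the first hour. Over the next hours the cell leaves quiescence: FOXO-dependent genes are shut down, MYC accumulates, and ribosome production and nutrient uptake increase ahead of cell division.

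Expression was read as log2 values made with GCRMA, where a difference of 1 is a 2-fold change. The lowest value on every array was 2.23, and values of 4 and below were treated as not above background, so the size of a difference from such a level is not exact. Of the genes with a named probe set, 8976 had a value above 4 on at least 3 of the 6 arrays and were tested. Among them 31 had no unstimulated value above 4 and 65 had no IgM value above 4. Those genes passed the filter through 1 group alone, so their p-values are no independent support for a difference. Arrays of one group correlated at 0.947 to 0.978 across the 8976 genes. The poly-A control RNAs, bacterial transcripts that the standard protocol adds to the sample RNA before labelling, were lower with IgM in 3 of 3 pairs, by log2 differences of -0.61, -0.56 and -0.68, whereas the hybridisation controls differed by -0.09, 0.10 and 0.25. Xist, a transcript of female cells, lay at 2.31 and 2.44 on the 2 arrays of replicate 1 and at 10.76 to 11.75 on the other 4, while the Y-linked Eif2s3y lay between 7.97 and 10.66 on all 6, those with high Xist included. The part of these differences in the results below was not tested. Foxp1 had log2 values of 12.27, 13.14 and 13.30 in unstimulated cells and 12.08, 12.91 and 13.06 with IgM. Its groups overlapped and its difference of -0.22 ± 0.09 (SE, 3 pairs) did not pass the threshold in limma (adjusted p = 0.068), although it did when all its passing probe sets were averaged (-0.33, adjusted p = 0.016). The cells labelled Foxp1flox/del had values of 12.26, 13.16 and 13.20 without IgM and 12.14, 12.74 and 13.06 with it, so this probe set showed no clear loss of Foxp1 there. It is 1 of 8 passing probe sets of Foxp1, and values of the others in those cells are not given here. Whether it lies in the deleted part is not given in the sources used here. Its level therefore neither bears out nor contradicts that label.

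Many genes differed after 4 h of stimulation, and how many were called depended on the pairing and on the filter on low values. With the replicate number as a block, limma called 5832 of 8976 genes, or 65.0%, at a Benjamini-Hochberg adjusted p under 0.05. Of these, 2700 rose (30.1% of the genes tested) and 3132 fell (34.9%). Most differences were small, and 1965 genes (21.9%) were called with a difference of at least 2-fold, 779 higher (8.68%) and 1186 lower (13.2%). At least 4-fold differences were found for 107 rises and 288 falls, and at least 8-fold ones for 25 rises and 55 falls. Over all tested genes the median log2 difference was -0.04, and the middle 50% lay between -0.55 and 0.42. Which direction held more calls depended on scaling: after the arrays were centred on their medians, 3053 genes rose and 2792 fell, while falls of at least 2-fold still outnumbered such rises (1046 against 909).

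The 3 pairs gave closely similar responses. Across the 8976 genes, the differences of any 2 pairs correlated at 0.92 to 0.94 (genes are not independent replicates), and the median SD between the 3 pairs was 0.17. In 5828 of the 5832 called genes all 3 pairs differed in the same direction. In 4168 genes (46.4% of those tested, 21.6% higher and 24.9% lower) the 3 IgM arrays lay wholly above or below the 3 unstimulated ones, and 1846 of the 1965 genes with a called difference of at least 2-fold were among them. Without the pairing, limma called 2729 genes, 1220 higher and 1509 lower (30.4% of those tested), all of them also called with it. With no filter on low values, 3003 of 18193 genes were called. Of the 1965 genes with at least 2-fold differences, 1735 were called without the pairing too. Because RNA was measured in bulk, fewer cells of a type and less RNA per cell cannot be told apart.

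**Figure D1:**
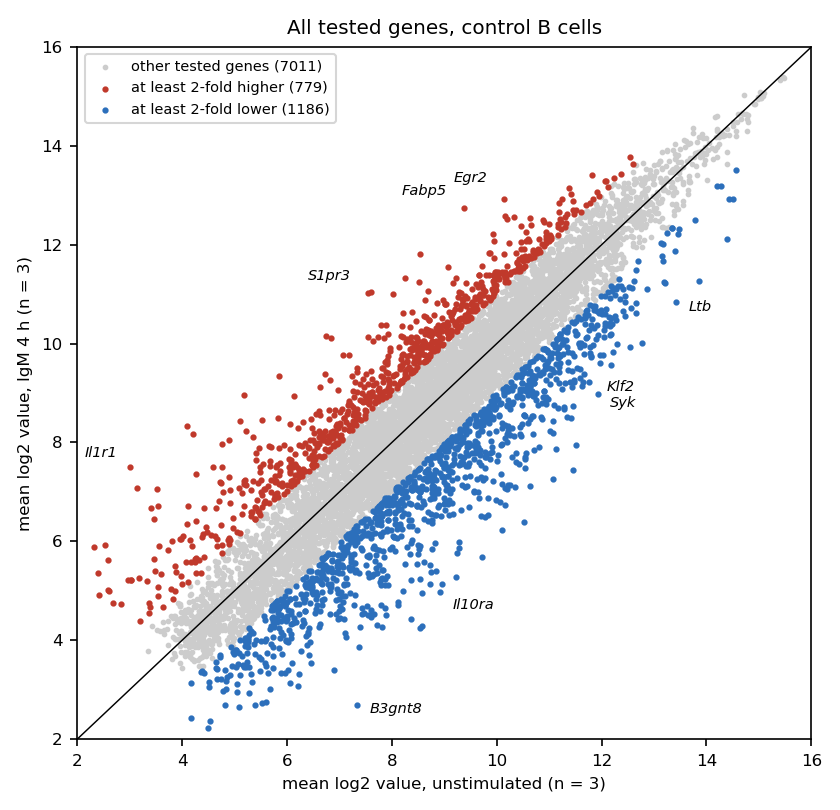
Mean log2 value of each tested gene in unstimulated control B cells (x axis) and after 4 h with IgM (y axis), 3 arrays each, with the line of equal values. The 779 genes called at least 2-fold higher are red, the 1186 called at least 2-fold lower are blue, and both kinds are spread over most of the range of levels.

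The largest rises included receptors, transcription factors and signalling regulators. Il1r1, which encodes the signalling receptor for interleukin-1, had log2 values of 3.23, 3.07 and 2.72 without IgM and 8.07, 7.13 and 7.31 with it. All unstimulated values lay below 4, so the difference of 4.49 ± 0.16 (SE, 3 pairs; limma adjusted p = 4.68e-05) starts from background. Il1r1 passed the filter through its IgM arrays alone, so this p-value is no independent support for the rise. Rragd, encoding the RagD GTPase that carries amino acid signals to mTORC1, rose from 4.59, 3.76 and 4.25 to 8.25, 7.77 and 8.49, a difference of 3.97. S1pr3, a sphingosine-1-phosphate receptor characteristic of marginal zone B cells, rose from 7.36, 8.18 and 7.07 to 10.94, 11.13 and 10.99, which is 11.2-fold (log2 difference 3.49 ± 0.19). These genes and the other leading rises were picked among genes whose groups did not overlap. The other leading rises were the RING finger gene Lonrf3 (4.26), the receptor tyrosine kinase Axl (3.94), the small Maf transcription factor Maff (3.79), the endothelial lipase Lipg (3.57), Plcxd1 (3.54), Bex1 (3.50), the transcriptional repressor Gfi1 (3.45), the G protein regulator Rgs1 (3.42), Fibcd1 (3.39), the fatty acid binding protein Fabp5 (3.37), Amz1 (3.33) and the nuclear receptor Nr4a2 (3.28). Lipg and Fibcd1 also had only unstimulated values below 4 and passed the filter through their IgM arrays alone.

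The largest falls could only begin at clear levels in resting cells, since the lowest value on every array was 2.23. B3gnt8, a glycosyltransferase that extends N-glycans, went from 8.13, 6.81 and 7.08 to 2.74, 2.67 and 2.66, so that it was at background on all 3 IgM arrays (log2 difference -4.65 ± 0.24, limma adjusted p = 6.90e-05). It passed the filter through its unstimulated arrays alone, so this p-value is no independent support for the fall. Il10ra, the ligand-binding chain of the interleukin-10 receptor, had values of 9.15, 8.68 and 8.91 without IgM and 5.21, 4.82 and 4.89 with it, a fall of 15.4-fold. Dgka encodes diacylglycerol kinase alpha, which removes the second messenger diacylglycerol. It fell from 10.03, 9.98 and 10.29 to 6.03, 6.19 and 6.45, or 14.7-fold. All falls named here were likewise picked among genes without overlap between the groups. The inhibitory adhesion receptor Pecam1 fell by 3.94, the Ras GTPase-activating protein Rasa3 by 3.83, the costimulatory ligand Icosl by 3.82 and the complement regulator Cd55 by 3.58. The others were Hepacam2 (-4.28), the kinase gene Lrrk2 (-4.28), Cyp4f18 (-4.14), Arhgef18 (-4.04), Ifit1bl1 of the interferon-induced Ifit family (-4.01), Klhl14 (-3.93), the retinol dehydrogenase Rdh12 (-3.63) and Abi3 (-3.58). Adjusted p of these 30 rises and falls lay between 4.65e-05 and 2.11e-04 in limma.

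**Figure D2:**
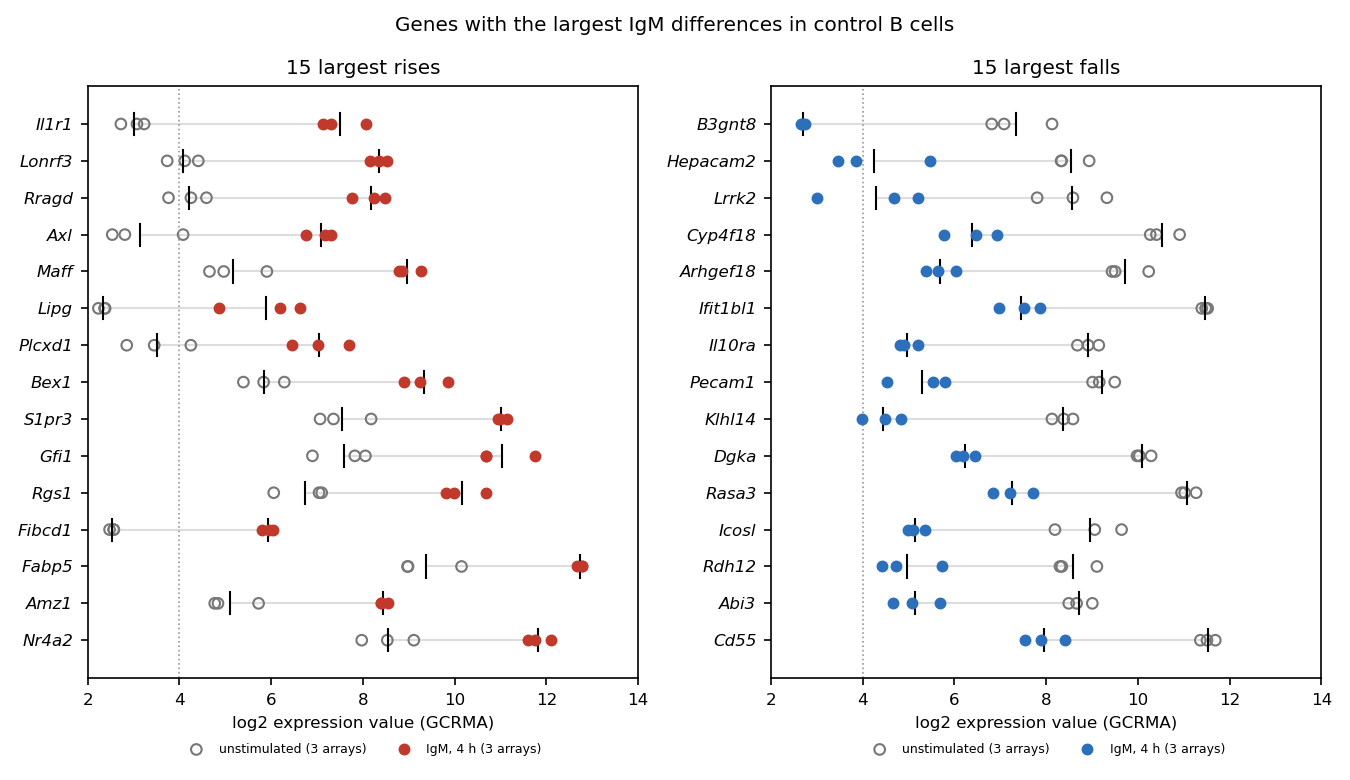
Log2 values of the 15 genes with the largest rises (left) and the 15 with the largest falls (right) among genes without overlap between the groups. Open circles are the 3 unstimulated arrays, filled circles the 3 IgM arrays, black ticks the group means, and the dotted line the background limit of 4. Several rises, such as that of Il1r1, begin below the limit, while falls of this size can only begin above it.

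Abundant transcripts changed as well. Among the 2388 genes with a mean log2 value of 10 or more, 189 rose and 207 fell at least 2-fold. Among all 8976 tested genes 779 rose (8.68%) and 1186 fell (13.2%) by that much. Both shares were thus smaller among abundant genes, mainly that of falls. Fabp5 rose from 8.99, 10.15 and 8.97 to 12.79, 12.77 and 12.67. Ahr, the aryl hydrocarbon receptor, rose by 2.42, the phosphopeptide-binding adaptor Samsn1 by 2.12, the TGF-beta mediator Smad3 by 2.12, the peptide transporter Slc15a3 by 2.49 and the G protein gamma subunit Gng4 by 2.29. Evl, an actin regulator, fell from 12.73, 12.51 and 13.05 to 10.14, 9.94 and 9.99. Il16 fell by 2.72, the ceramide kinase Cerk by 2.62, Cnp by 2.59, the lymphotoxin gene Ltb by 2.58, Trim34a by 2.49 and the ubiquitin ligase Mylip by 2.42. Of these, 1 of the 2 passing probe sets of Trim34a and 2 of the 3 of Il16 were called in this direction. These genes too were picked among those whose 3 IgM arrays lay beyond the 3 unstimulated arrays.

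Immediate early transcription factors, which are switched on without new protein synthesis, were mostly higher. Of 27 tested, 17 rose (63.0%), 13 of them at least 2-fold, and 4 fell at least 2-fold (14.8%), with a median of 0.72. Among all tested genes 30.1% rose and 34.9% fell. Nr4a2, an orphan nuclear receptor, lay at 7.98, 9.11 and 8.53 without IgM and at 11.60, 11.75 and 12.10 with it. Its relatives Nr4a3 and Nr4a1 rose by 2.32 and 1.68. Of the zinc finger factors that report antigen receptor signalling, Egr2 rose from 9.65, 10.58 and 10.20 to 12.61, 13.06 and 13.13 (2.79 ± 0.13), Egr1 by 2.22 ± 0.12 and Egr3 by 1.65 ± 0.17. The Fos family rose most through Fosl1 (3.23) and Fosl2 (3.06), while Fos itself rose from 7.63, 8.15 and 7.94 to 9.47, 9.93 and 9.59 (1.76). The Jun family moved differently: Junb rose by 0.48 (limma adjusted p = 0.0059), and Jun, at 8.78, 10.22 and 10.08 without IgM and 8.27, 8.99 and 8.58 with it, fell by 1.08 ± 0.19 (adjusted p = 0.0039). The groups of Junb and Jun overlapped, and neither was called without the pairing (adjusted p = 0.19 and 0.097). Jund fell by 1.02 ± 0.12 (limma adjusted p = 7.3e-04) and was also called without the pairing (0.021).

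The receptor and its proximal signalling proteins were mostly lower. Of 29 tested genes, 18 fell (62.1%), 13 at least 2-fold, and 6 rose (20.7%), with a median of -0.86. Among all tested genes 34.9% fell and 30.1% rose. Syk, the kinase that docks on the phosphorylated receptor chains, fell from 11.68, 11.99 and 12.09 to 8.79, 9.05 and 9.08, or 7.73-fold (log2 difference -2.95 ± 0.09, limma adjusted p = 4.65e-05), and all 4 of its passing probe sets were called in this direction. The signalling chain genes Cd79a, at 14.42, 14.46 and 14.27 without IgM and 12.85, 12.37 and 11.16 with it, and Cd79b, at 14.61, 14.40 and 14.51 and then 13.17, 12.88 and 12.75, fell by 2.26 ± 0.28 and 1.58 ± 0.10. The scaffold Bank1 fell by 2.60 and the calcium release channel Itpr3 fell by 2.61. In Cd79a, Cd79b, Syk, Bank1 and Itpr3 the groups did not overlap. Rises in this list ranged from 0.82 to 1.58 and the other falls from -2.24 to -0.43. Without the pairing 14 of the falls and 3 of the rises were called.

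Inhibitory receptors and phosphatases, which damp the receptor signal, also had more falls than rises. Among 19 tested, 11 fell, 10 of them at least 2-fold, and 3 rose, with a median of -1.0. The sialic acid-binding receptors Siglecg and Cd22 fell by 2.58 ± 0.10 and 2.01 ± 0.11, and the carcinoembryonic antigen-related receptor Ceacam1 went from 7.05, 7.74 and 6.56 to 4.12, 4.13 and 3.93. Pecam1, described among the largest falls, has a related inhibitory role. The exception of largest size was Cd5, an inhibitory receptor of B-1 and T cells, which rose from 5.39, 5.07 and 4.23 to 7.68, 7.19 and 7.02 (2.40 ± 0.15, limma adjusted p = 9.92e-05).

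**Figure D3:**
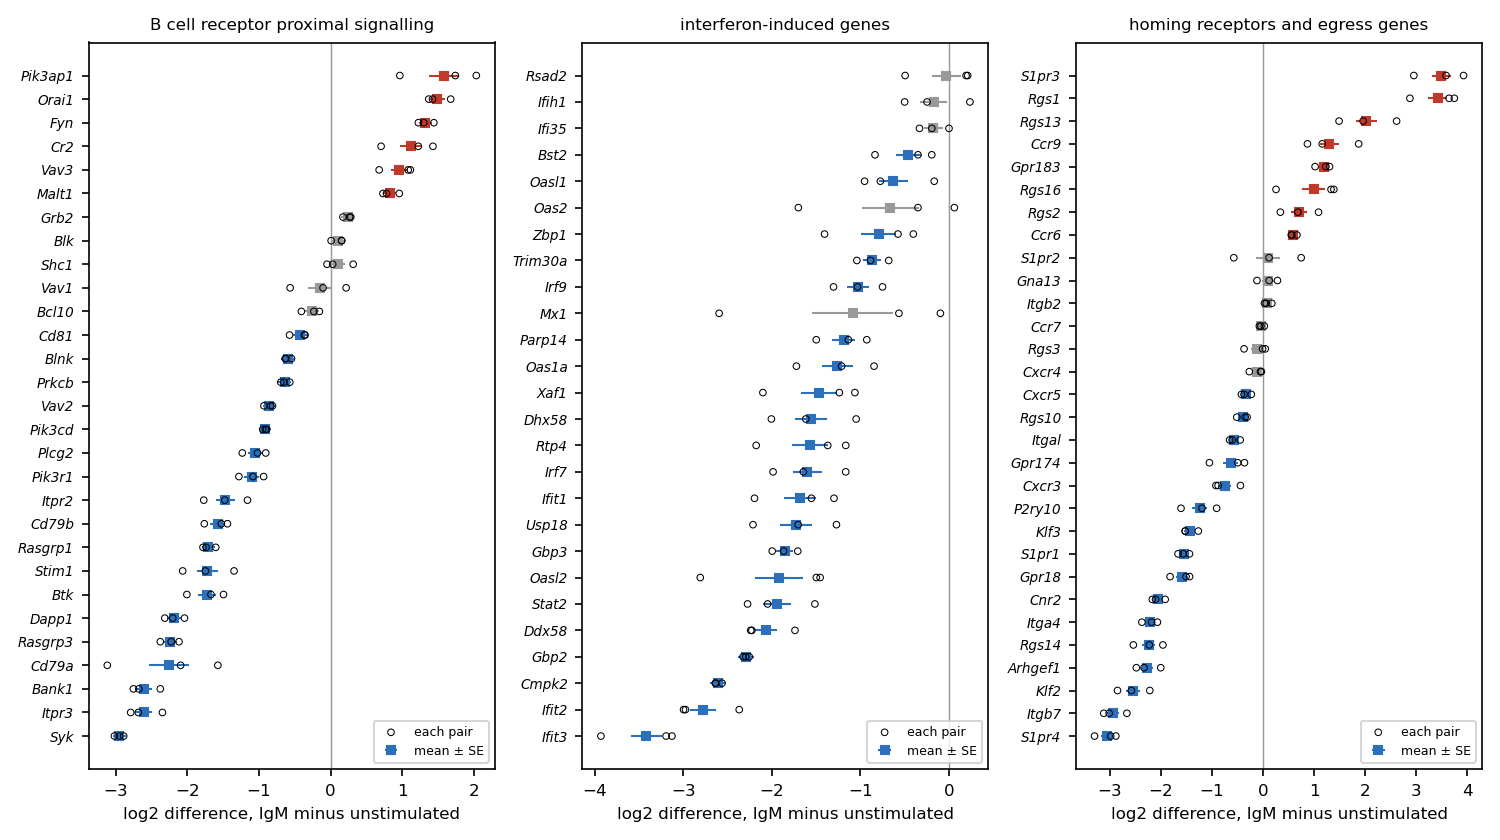
Log2 differences (IgM minus unstimulated, x axis) of every tested member of 3 gene lists, with open circles for the 3 pairs and squares with bars for the mean and its standard error. Red and blue squares passed an adjusted p of 0.05 and grey ones did not. Most receptor-proximal genes fell, no interferon-induced gene rose, and the homing list held both large rises and large falls.

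Signal feedback inhibitors, which are induced by the pathways they restrain, were more often higher, with a median of 0.65. Of 27 tested, 14 rose (51.9%, against 30.1% of all tested genes), 8 at least 2-fold. Another 4 fell by less than 2-fold (14.8%, against 34.9% that fell among all tested genes). The Sprouty-related inhibitors of Ras signalling Spred1 and Spry1 rose by 2.42 ± 0.23 and 2.26 ± 0.24, the second from values of 2.62, 3.42 and 2.86 that were below the background limit. Spry1 thus passed the filter through its IgM arrays alone. Dusp4, a phosphatase of MAP kinases, rose by 1.42 ± 0.12 and the cytokine signalling inhibitor Cish by 1.28 ± 0.16. Nfkbia, encoding the NF-kB inhibitor that NF-kB itself induces, was at 13.98, 13.93 and 14.08 and then 14.15, 14.07 and 14.24, a difference of 0.16 ± 0.09 that did not pass (limma adjusted p = 0.157). Of 14 NF-kB and Rel family genes 5 rose and 5 fell (35.7% each, against 30.1% and 34.9% of all tested genes), or 7 and 3 on median-centred arrays. The subunit gene Rel rose by 1.28 ± 0.11 and the inhibitors Nfkbie and Nfkbib by 1.09 and 0.89, while the atypical family member Bcl3 fell by 1.91 ± 0.11.

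Secreted factors and their receptors included rises and falls. Of 19 tested cytokine and chemokine genes 8 rose, 7 at least 2-fold, and 7 fell, 4 at least 2-fold, which is 42.1% and 36.8% against 30.1% and 34.9% of all tested genes. Ccl3 and Ccl4, chemokines that attract T cells and monocytes, rose from 9.50, 10.30 and 9.76 to 11.89, 11.72 and 11.90 and from 10.85, 10.59 and 10.50 to 12.79, 12.15 and 12.24. The regulatory cytokine gene Il10 rose by 1.48 ± 0.11 and the vascular growth factor gene Vegfa by 3.02 ± 0.21. The largest falls were those of Il16 (-2.72), Ltb (-2.58) and Il12a (-2.19). Of 23 genes on the cytokine receptor list, which does not hold Il1r1, 6 rose and 8 fell (26.1% and 34.8%), shares near those of all tested genes. Within this list the largest changes besides the fall of Il10ra were rises of Il7r (1.85 ± 0.25), of Il2ra (1.78 ± 0.18) and of the interleukin-1 decoy receptor gene Il1r2 (1.75 ± 0.16). Il10 and the gene of its receptor chain Il10ra therefore changed in opposite directions.

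Activation and costimulation surface proteins had 11 rises and 8 falls among 26 (42.3% and 30.8%, against 30.1% and 34.9% of all tested genes). Cd69, an early activation antigen, rose from 10.33, 10.77 and 10.69 to 12.15, 11.92 and 12.29 (1.52 ± 0.14, limma adjusted p = 3.27e-04). The T cell costimulator Cd86 and the maturation marker Cd83 rose by 0.79 ± 0.09 and 0.72 ± 0.09, both without overlap. The PD-1 ligand gene Pdcd1lg2 and the phosphatidylserine receptor gene Havcr1 rose by 2.32 ± 0.21 and 2.02 ± 0.14. Against these, Icosl went from 8.19, 9.06 and 9.64 to 4.99, 5.36 and 5.09, and Cd55 from 11.51, 11.36 and 11.69 to 8.40, 7.89 and 7.54.

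Homing receptors and egress genes, which set where a B cell sits in the spleen and whether it returns to blood, included large changes in both directions. Of 30 tested, 8 rose, 5 at least 2-fold, and 16 fell, 11 at least 2-fold. Rises were 26.7% and falls 53.3%, against 30.1% and 34.9% of all tested genes. Klf2, a transcription factor of resting lymphocytes that drives egress receptors, fell from 12.25, 11.49 and 11.57 to 9.67, 9.27 and 8.72, or 5.86-fold. S1pr1, the receptor for exit into blood, fell from 9.90, 9.33 and 9.31 to 8.24, 7.76 and 7.87 (-1.56 ± 0.09), and S1pr4 from 11.34, 10.22 and 10.08 to 8.35, 7.34 and 6.77 (-3.06 ± 0.11). The integrin chain gene Itgb7 fell by 2.94. Rgs1, a brake on chemokine receptor signalling, rose from 6.06, 7.10 and 7.04 to 9.80, 9.98 and 10.69, so S1pr3 and Rgs1 were the members with the largest rises. Ccr7, the receptor that draws B cells towards the T cell zone, was at 12.93, 13.01 and 12.78 and then 12.86, 12.96 and 12.80. Its difference was -0.03 ± 0.09 and did not pass (limma adjusted p = 0.775).

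FOXO targets and quiescence genes were lower in most cases. FOXO proteins keep resting lymphocytes out of the cycle and are inactivated by PI3-kinase and AKT. Of 40 tested, 29 fell, 20 at least 2-fold, and 9 rose, with a median of -0.98, against 34.9% of all genes that fell. The cyclin-dependent kinase inhibitor gene Cdkn2d fell from 10.30, 9.10 and 9.50 to 7.82, 6.54 and 6.61 (-2.65 ± 0.11). The retinoblastoma relative Rbl2 was nearly constant within each group, at 10.47, 10.43 and 10.45 without IgM and 8.22, 8.37 and 8.35 with it, a 4.41-fold fall. Irs2, an adaptor of the insulin receptor and a FOXO target, went against the list and rose by 2.25 ± 0.14. In the Myc network, Myc rose from 10.13, 10.98 and 10.78 to 12.22, 12.67 and 12.71 (1.90 ± 0.11, limma adjusted p = 8.54e-05). Of the MYC antagonists that bind the same partner MAX, Mxd4 fell by 2.61 ± 0.12 and Mxi1 by 1.72 ± 0.09, and Mxd1 rose by 1.16 ± 0.23.

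**Figure D4:**
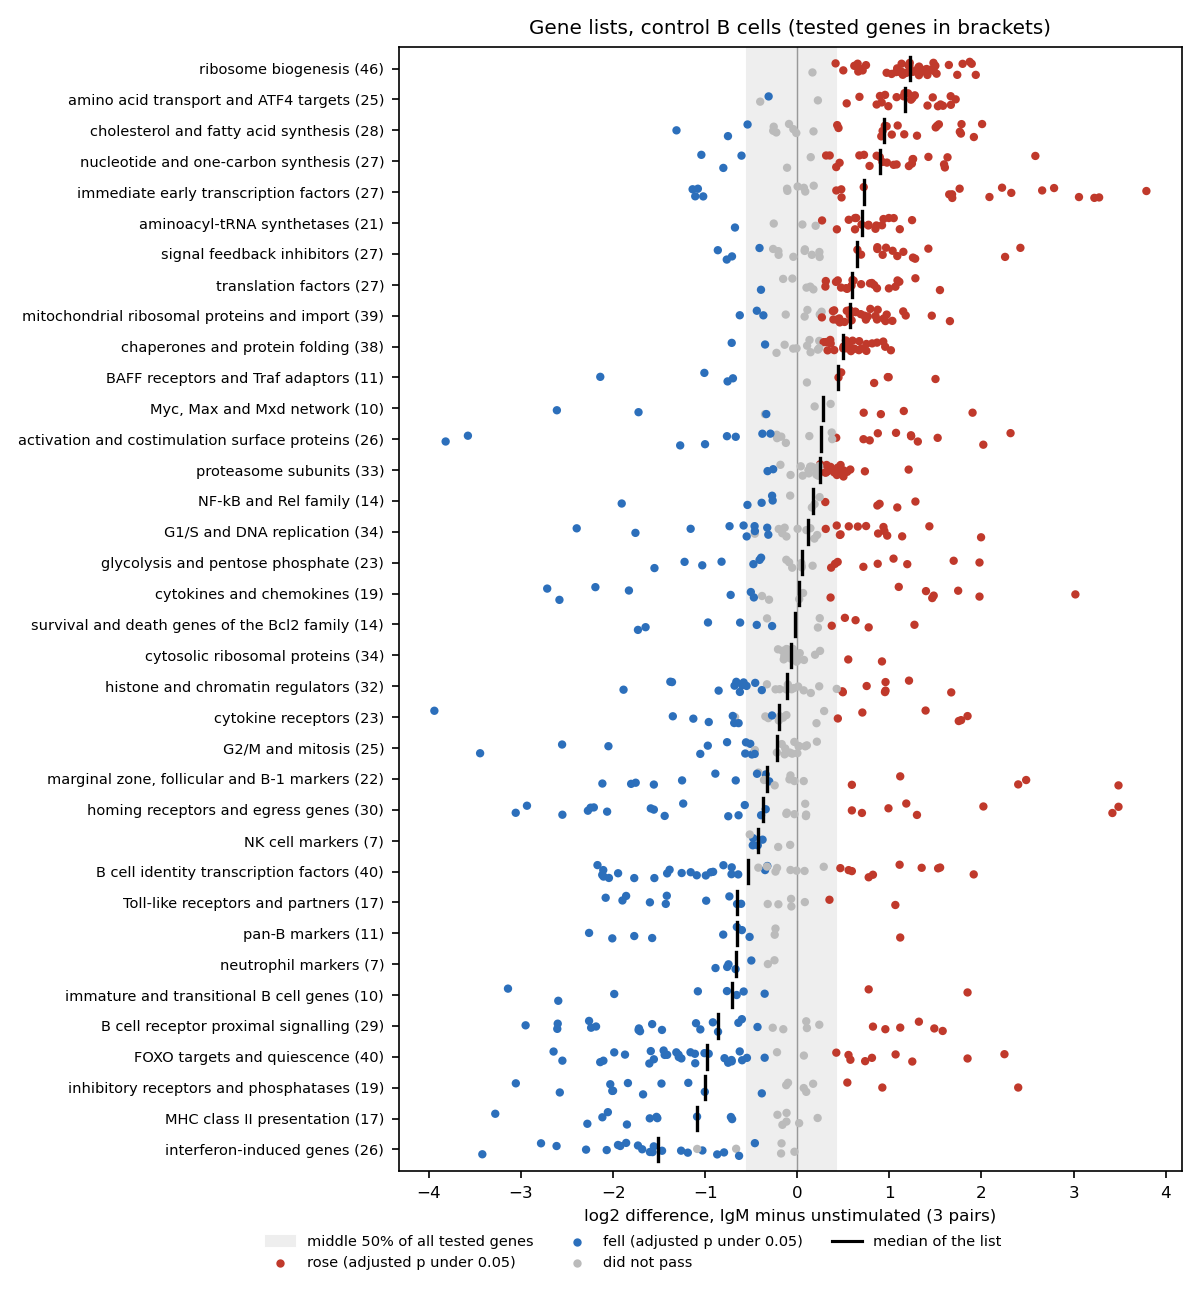
Log2 differences (x axis, IgM minus unstimulated, mean of 3 pairs) of the tested members of each list with at least 7 of them, with 1 point per gene and a black tick at the list's median. Red points rose, blue points fell and grey points did not pass an adjusted p of 0.05, and the grey band holds the middle 50% of all tested genes. Among these lists ribosome biogenesis has the highest median (1.22) and the interferon-induced genes the lowest (-1.51).

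Genes of ribosome biogenesis rose almost without exception. These encode RNA polymerase I subunits and the nucleolar factors that process ribosomal RNA and assemble the subunits. Of 46 tested, 45 rose (97.8%, against 30.1% of all tested genes), 36 at least 2-fold, and none fell. The median was 1.22, the remaining gene had a difference of 0.16, and 40 of the rises were also called without the pairing. Polr1b, the second largest polymerase I subunit, rose from 7.95, 8.17 and 7.75 to 9.79, 9.78 and 9.98 (1.89 ± 0.14). Rrp1b rose by 1.94, the RNA acetyltransferase gene Nat10 by 1.87 and Rrp12 by 1.80. Genes of the finished cytosolic ribosome's proteins did not share this: of 34 tested, 2 rose (5.88%), Rpl12 (0.92) and Rps25 (0.55), and none fell. The median mean level of this list, 14.41, was near the top of the scale, as the highest value on the 6 arrays was 15.79. How far such values can still rise was not tested. Rpl12 and Rps25 had much lower mean levels of 9.14 and 10.44. The median difference of the 34 genes was -0.07 on the deposited scale and 0.01 on median-centred arrays. Neither Rpl12 nor Rps25 was called without the pairing (limma adjusted p = 0.44 and 0.10).

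The sequence CACGTG, the E-box to which MYC and other basic helix-loop-helix factors bind, was searched on both strands in the RefSeq promoter windows (GRCm38.p6, 250 bases before to 50 after the start), which were matched for 7393 of the 8976 tested genes. It was present in 20.6% of 635 genes that rose at least 2-fold, 8.95% of 950 that fell at least 2-fold and 12.7% of all tested genes. A gene was counted when any of its windows held a match. In ribosome biogenesis 9 of 41 matched genes (22%) held the E-box, 8 after the start and 1 before it. The 250 bases before the start of Nop2, an rRNA methyltransferase gene that rose by 1.22 ± 0.10 (SE, 3 pairs), are shown because they hold that 1 match, with the E-box in capitals (chr6:125131633-125131882, plus strand).
Nop2: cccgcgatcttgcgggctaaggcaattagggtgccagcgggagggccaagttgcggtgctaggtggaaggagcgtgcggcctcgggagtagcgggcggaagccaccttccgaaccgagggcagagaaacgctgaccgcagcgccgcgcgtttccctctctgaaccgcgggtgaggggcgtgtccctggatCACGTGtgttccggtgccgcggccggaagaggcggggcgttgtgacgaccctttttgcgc
The match lies 54 bases from the start, and it is a description of the letters and does not show binding.

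Other parts of the protein synthesis machinery rose by smaller amounts. Among all tested genes 30.1% rose. Of 27 translation factor genes 21 rose (77.8%), 5 at least 2-fold, led by Eif2b3 (1.55 ± 0.09), a subunit of the exchange factor for eIF2, and Eif1a (1.28 ± 0.10). Of 21 aminoacyl-tRNA synthetase genes 17 rose (81.0%), 3 at least 2-fold, with Aimp2 (1.25), Eprs (1.11) and Yars (1.05) in front. Mitochondrial ribosomal protein and import genes rose in 30 of 39 cases (76.9%), 5 at least 2-fold. The import chaperones Timm9 and Timm8a1 rose by 1.66 ± 0.20 and 1.46 ± 0.09. Among 38 chaperone genes 26 rose (68.4%), but 1 of them, the endoplasmic reticulum chaperone Hyou1 (1.02 ± 0.21), by at least 2-fold, and its groups overlapped. Proteasome genes rose in 17 of 33 cases (51.5%), or in 10 when replicate 2 or replicate 3 was left out. In those 2 fits 2315 and 2341 of all 8976 tested genes rose. The proteasome activator gene Psme3 (1.21 ± 0.10) was the member with a 2-fold rise. These lists depended on the pairing more than ribosome biogenesis did: without it 10 translation factor, 11 synthetase, 15 mitochondrial, 8 chaperone and 3 proteasome genes were called higher. Among all tested genes 13.6% were called higher without the pairing.

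Amino acid transport genes and targets of ATF4, the transcription factor that responds to amino acid shortage and to mTORC1, were mostly higher. Of 25 tested, 22 rose (88.0%, against 30.1% of all tested genes), 15 at least 2-fold, with a median of 1.17. The cystathionine lyase gene Cth rose from 6.32, 6.32 and 6.02 to 8.16, 7.87 and 7.79 (1.72 ± 0.10). Atf5 rose by 1.67 ± 0.12, the neutral amino acid transporter Slc1a4 by 1.67 ± 0.10 and the pseudokinase gene Trib3 by 1.58 ± 0.09. Without the pairing 20 of the 22 rises were called. The ATF4 composite sequence TGATGNAA was present in 23.8% of the 21 list genes with matched promoter windows and in 2.68% of all tested genes. The list was chosen for ATF4 targets, so this share describes the list and is no result of IgM. Among all genes that rose at least 2-fold the share was 3.31% and among those that fell 2.63%. The 250 bases before the start are shown for Asns, the asparagine synthetase gene (1.28 ± 0.12; chr6:7693210-7693459, minus strand), and Chac1, a glutathione-degrading enzyme gene (1.56 ± 0.15; chr2:119350992-119351241, plus strand), with matches on either strand in capitals.
Asns: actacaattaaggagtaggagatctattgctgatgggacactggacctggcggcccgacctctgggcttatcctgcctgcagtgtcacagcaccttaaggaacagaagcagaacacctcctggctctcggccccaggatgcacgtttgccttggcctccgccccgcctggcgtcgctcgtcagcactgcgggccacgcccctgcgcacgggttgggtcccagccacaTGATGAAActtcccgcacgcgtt
Chac1: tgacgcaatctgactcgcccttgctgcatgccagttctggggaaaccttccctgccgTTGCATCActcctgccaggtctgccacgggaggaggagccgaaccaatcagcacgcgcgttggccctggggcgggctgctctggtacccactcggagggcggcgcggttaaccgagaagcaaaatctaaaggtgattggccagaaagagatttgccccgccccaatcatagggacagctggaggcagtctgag
In Asns the match is 15 bases from the start and in Chac1 185.

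Transcripts of nucleotide and lipid synthesis enzymes were more often higher than lower. Of 27 nucleotide and one-carbon genes 22 rose (81.5%, against 30.1% of all tested genes), 11 at least 2-fold, with a median of 0.90. Shmt1, the cytosolic serine hydroxymethyltransferase, rose from 7.96, 8.09 and 7.33 to 10.59, 10.27 and 10.28 (2.59 ± 0.16). The spermidine synthase gene Srm, the CTP synthase gene Ctps and the pyrimidine synthesis gene Cad rose by 1.63, 1.6 and 1.59. Of 28 cholesterol and fatty acid genes 18 rose (64.3%), 12 at least 2-fold, 3 fell (10.7%) and 7 did not pass, with a median of 0.94. Lss, the lanosterol synthase, rose by 2.01 ± 0.14, the fatty acid synthase gene Fasn by 1.92 ± 0.13, and Idi1 and the squalene epoxidase gene Sqle by 1.78 each. The sterol response sequence TCACNCCAC was found in 1 of the 20 list genes with matched windows (5.0%) and in 1.19% of all tested genes. Glycolysis and pentose phosphate genes had 9 rises and 7 falls among 23 (39.1% and 30.4%), near the shares of all tested genes (30.1% and 34.9%). Hexokinase 2 (Hk2) and the lactate transporter Slc16a1 rose by 1.98 ± 0.16 and 1.70 ± 0.13, while Pfkfb4 and the pyruvate dehydrogenase kinase gene Pdk1 fell by 1.55 ± 0.21 and 1.22 ± 0.09.

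Of 34 G1/S and DNA replication genes 14 rose and 10 fell (41.2% and 29.4%, against 30.1% and 34.9% of all tested genes), 3 each by at least 2-fold. Ccnd2, the D-type cyclin that B cells induce on activation, rose from 11.45, 11.80 and 11.68 to 12.49, 12.68 and 12.59 (0.95 ± 0.09), and the uracil glycosylase gene Ung rose by 2.0 ± 0.14. Ccnd3, another D-type cyclin, and E2f2 fell by 1.76 ± 0.13 and 2.40 ± 0.15. Of 25 G2/M and mitosis genes none rose and 11 fell (44.0%), 4 of these by at least 2-fold, whereas 30.1% of all tested genes rose and 34.9% fell. The median mean level of this list, 5.995, was low. The phosphatase gene Cdc25b went from 9.53, 8.6 and 8.38 to 5.51, 5.49 and 5.19, and Ndc80 and Aurkb fell by 2.55 and 2.05.

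Survival and death genes of the Bcl2 family had 5 rises and 6 falls among 14 (35.7% and 42.9%), near the shares of all tested genes (30.1% and 34.9%). Bcl2l1, the gene of the death-blocking protein BCL-XL, rose from 8.83, 8.41 and 8.25 to 10.47, 9.45 and 9.38 (1.27 ± 0.14). Bcl2 fell from 9.01, 9.46 and 9.38 to 7.50, 7.67 and 7.49 (-1.73 ± 0.11), so the 2 anti-apoptotic genes moved in opposite directions without overlap. Mcl1 lay at 13.39, 13.53 and 13.73 and then 13.10, 13.28 and 13.46, with overlapping groups. Its difference of -0.27 ± 0.09 passed in limma (adjusted p = 0.034) but not without the pairing (0.28), on median-centred arrays (0.104) or without any 1 of the replicates (0.090 to 0.12). With the pairing and all replicates, 6 of the 6 passing probe sets of Mcl1 were called as falls. Of the pro-apoptotic BH3-only genes, Bmf fell by 1.65 ± 0.12, and Bcl2l11, encoding BIM, rose by 0.37 ± 0.10 (limma adjusted p = 0.020). That rise was not called without the pairing (0.17), without replicate 1 (0.081) or without replicate 3 (0.085). With the pairing and all replicates, 4 of the 5 passing probe sets of Bcl2l11 were called as rises. Among BAFF receptor and Traf genes, the caspase-8 inhibitor Cflar rose by 1.5 ± 0.13, and Traf5 and the TACI gene Tnfrsf13b fell by 2.14 ± 0.15 and 1.01 ± 0.11.

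Transcription factors of B cell identity fell more often than they rose: 22 of 40 fell, 13 at least 2-fold, and 10 rose, with a median of -0.53. Pax5, the factor that commits cells to the B lineage, fell from 7.73, 7.15 and 6.71 to 5.56, 5.89 and 4.82 (-1.77 ± 0.18). Tcf3, encoding the E proteins, fell by 2.17 ± 0.18, as did their inhibitor Id3 (-2.11 ± 0.12), Bcl7a (-2.12) and the ETS factor Fli1 (-2.10). Irf4, which is needed for plasma cell differentiation, rose from 12.13, 12.34 and 12.23 to 13.30, 13.36 and 13.37 (1.11 ± 0.09). Of 17 MHC class II presentation genes none rose and 11 fell (64.7%), 9 of them at least 2-fold. The falls were of the ubiquitin ligase Marchf1 (-3.28 ± 0.14), of H2-Oa (-2.28) and H2-DMa (-2.06), which control peptide loading, and of the lipid-presenting Cd1d1 (-2.12), among others. The class II chain genes H2-Aa, H2-Ab1 and H2-Eb1 and the invariant chain gene Cd74 had differences of 0.22, -0.12, 0.02 and -0.22, none of which passed.

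Interferon-induced genes had a median of -1.51, the lowest among the lists with at least 7 tested members. Of 26 tested, 21 fell (80.8%, against 34.9% of all tested genes), 17 at least 2-fold, and none rose, with 15 of the falls called without the pairing. Ifit3, an antiviral tetratricopeptide protein, was at 10.13, 10.33 and 10.03 in unstimulated cells and at 6.93, 7.20 and 6.10 with IgM, a 10.7-fold fall (-3.42 ± 0.17, limma adjusted p = 6.84e-05). Ifit2 fell by 2.78 ± 0.15 and Cmpk2, a mitochondrial nucleotide kinase, fell by 2.61 ± 0.09. Gbp2, a guanylate-binding GTPase, differed more between replicate numbers than most (10.73, 12.25 and 11.80 without IgM), yet its 3 pair differences of -2.33, -2.26 and -2.30 lay close together (mean -2.29 ± 0.09). The interferon-stimulated response element was searched on both strands as GAAA, any 2 bases and GAAA again. It was present in 11 of the 19 list genes with matched promoter windows (57.9%) and in 3.86% of all tested genes. The list was chosen for interferon response, so this share describes the list and is no result of IgM. Among all genes that fell at least 2-fold the share was 5.58% and among those that rose 2.83%. The 250 bases before the start are shown for Ifit3 (chr19:34583279-34583528), Ifit1 (chr19:34640639-34640888; fell by 1.68 ± 0.18) and Gbp2 (chr3:142620413-142620662), all on the plus strand, with the element in capitals.
Ifit3: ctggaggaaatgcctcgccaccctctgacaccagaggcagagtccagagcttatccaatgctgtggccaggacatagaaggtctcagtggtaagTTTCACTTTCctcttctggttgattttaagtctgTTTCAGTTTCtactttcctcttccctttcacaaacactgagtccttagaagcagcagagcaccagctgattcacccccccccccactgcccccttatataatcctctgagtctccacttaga
Ifit1: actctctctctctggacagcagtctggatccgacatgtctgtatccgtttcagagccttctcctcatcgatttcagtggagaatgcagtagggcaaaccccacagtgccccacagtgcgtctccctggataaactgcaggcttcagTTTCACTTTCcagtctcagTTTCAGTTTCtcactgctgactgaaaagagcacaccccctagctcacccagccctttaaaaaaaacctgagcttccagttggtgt
Gbp2: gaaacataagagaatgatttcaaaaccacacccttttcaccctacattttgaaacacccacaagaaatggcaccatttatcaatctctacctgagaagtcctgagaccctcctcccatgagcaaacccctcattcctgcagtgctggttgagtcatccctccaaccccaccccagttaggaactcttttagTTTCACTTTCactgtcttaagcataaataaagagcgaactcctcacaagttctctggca
Ifit3 and Ifit1 hold 2 matches each and Gbp2 holds 1, here in the reverse orientation.

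Innate receptors followed the same direction in part. Of 17 Toll-like receptor and partner genes 10 fell, 6 at least 2-fold, and 2 rose. These are 58.8% and 11.8%, against 34.9% and 30.1% of all tested genes. Tlr1 and Tlr4, which recognise bacterial lipoproteins and lipopolysaccharide, fell by 2.08 ± 0.18 and 1.86 ± 0.17, the inhibitory kinase gene Irak3 by 1.90 ± 0.12 and Irf7, a transcription factor of the interferon response, by 1.6 ± 0.16. The marker genes of B cell subsets were mixed. Of 22 marginal zone, follicular and B-1 genes 5 rose and 10 fell (22.7% and 45.5%, against 30.1% and 34.9% of all tested genes). Those with the largest changes were S1pr3 (3.49), Myof (2.49 ± 0.27), Cd5 (2.40) and Cd1d1 (-2.12). S1pr3 and Cd1d1, both high in marginal zone cells, thus changed in opposite directions. All 10 tested immature and transitional genes changed, against 65.0% of all tested genes, and 8 of the 10 fell. The falls included Vpreb3 (-3.14 ± 0.15), Tifa (-2.60) and the recombinase gene Rag1 (-1.99 ± 0.14). Of 32 histone and chromatin regulators 8 rose and 12 fell (25% and 37.5%, against 30.1% and 34.9% of all tested genes), with Kdm6b (1.67), Smarca2 (-1.89), Hdac5 (-1.38) and Kmt2a (-1.36) changing most, and the groups of Kdm6b and Kmt2a overlapped.

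Markers of the sorted lineage were present on every array. The mean log2 level of the 11 tested pan-B genes of 13 listed was 11.88 to 12.08 without IgM and 11.05 to 11.26 with it. Of these genes 8 fell (72.7%, against 34.9% of all tested genes), including Cd79a, Cd79b, Cd22 and Pax5. Neutrophil markers (7 tested of 10) had mean levels of 6.64, 8.32 and 4.72 without IgM and 6.11, 7.50 and 4.30 with it, so they differed more between replicate numbers than with IgM. Among them 5 fell (71.4%), each by less than 2-fold, and none was called without the pairing. Mpo was the highest of these, at 8.91, 10.24 and 7.72 and then 7.98, 9.48 and 7.17. NK cell markers (7 of 9) lay at 6.86, 5.92 and 5.09 and then 6.44, 5.52 and 4.82, with 4 falls (57.1%) that were likewise lost without the pairing. T cell markers (4 of 10) lay at 4.62 to 6.02 and then 5.0 to 6.30. Of these, Cd5 rose, which B-1 cells also express, whereas Cd28 (-0.78) and Cd3g (-0.47) fell, and the median was -0.44. Macrophage markers (4 of 12) lay at 5.44 to 6.38 and then 5.23 to 5.84, with a median difference of -0.11. Adgre1, the macrophage protein F4/80, fell from 6.27, 5.61 and 6.16 to 3.69, 4.00 and 4.19, and Lyz2 fell by 0.44, while Cd68 (0.34) and Csf1r (0.21) did not pass. The part of these cells in the B cell results was not tested. Plasma cell genes did not rise together: Irf4 rose, Sdc1 fell by 1.75 ± 0.10 and Mzb1 by 1.75 ± 0.16.

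A few genes with a called difference of at least 2-fold varied widely between the pairs. Mt2, a metallothionein, went from 6.90, 6.32 and 6.34 to 9.37, 6.88 and 6.90, so its rise of 1.20 ± 0.38 was largest in pair 1. The neurofilament gene Nefh went from 2.74, 4.52 and 3.37 to 3.18, 5.59 and 5.93, and Mid1 from 2.23, 2.46 and 6.68 to 2.63, 4.98 and 7.52. Gbp2b fell in pairs 1 and 2, from 5.82 and 7.57 to 3.88 and 5.36, and was at background in pair 3. Carns1 fell mainly in pair 3, from 7.40 to 4.10. Adjusted p of these 5 genes lay between 0.017 and 0.040 in limma, and none was called without the pairing. Mid1 was not called without replicate 3 (adjusted p = 0.054), nor Gbp2b without replicate 1 (0.20) or replicate 2 (0.12).

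The control response was compared with that of Foxp1flox/del cells through the interaction term of a fit over all 12 arrays. It called 2 of 8976 genes (0.0223%), with 753 at an unadjusted p under 0.05, and 1938 of the 1965 genes with at least 2-fold differences in control cells had a difference of the same sign in cells labelled Foxp1flox/del. Spry1 rose in the control pairs by 2.38, 2.84 and 1.55 and had differences of -3.05, -3.10 and -2.74 in the Foxp1flox/del pairs (interaction -5.22 ± 0.40, limma adjusted p = 0.0027). Slamf1, a B and T cell adhesion receptor, had 1.18, 1.21 and 0.82 against -0.68, -0.83 and -0.64 (interaction -1.79 ± 0.20, adjusted p = 0.042). Replicate 3 of the Foxp1flox/del IgM group stood apart from the others of its group, and without it 170 genes were called, including both of these and Il1r1, whose rise was then 4.49 in control and 1.28 in Foxp1flox/del cells (adjusted p = 0.0051). With replicate 1, 2 or 3 left out the interaction called 0, 0 and 12 genes, so that number depended on which arrays entered the fit.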

How the data were processed

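Values of the 12 one-colour Affymetrix arrays were used as deposited, on a log2 scale that was read from the values. The submitters' processing notes name GCRMA without a version. That method subtracts a background estimated from probe sequence, quantile-normalizes the arrays and combines the probes of a set. Precision is limited by the number of arrays. Of 45101 probe sets, the 34945 with 1 gene in the platform annotation were used, and symbols of 34741 were updated from a RefSeq gene table (GRCm38.p6). Probe sets above 4 on at least 3 of the 6 control arrays were kept, and the one with the highest mean stood for its gene.

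Differences were tested two-sided with limma 3.58.1 in R 4.3.3, with group and replicate number in the model and Benjamini-Hochberg adjustment over 8976 genes. Errors are standard errors of that fit. As a check of the pairing, each array's deviation from its group mean was correlated across genes between the groups. The correlations were 0.86, 0.70 and 0.84 for equal numbers and below 0 for unequal ones. Deviations from a group mean sum to 0, so the negative values follow largely from the positive ones and add no separate evidence. Equal numbers had been set as pairs before this check. The labels do not say what the numbers share. The 2-fold threshold was chosen after the data were seen. Promoter windows were searched for 10 motifs, of which 7 are described.

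Members and gene lists were chosen with earlier results of these data known. Genes named were the 15 largest rises and falls without overlap, the 10 largest each among abundant genes (mean 10 or more), up to 4 of the most changed called members of each list, a set of activation and survival genes, the 5 with the widest pair spread and those past the interaction threshold. Xist, Eif2s3y, Jund, Cd68, Csf1r, H2-Aa, H2-Ab1, H2-Eb1, Cd74, Nop2, Asns, Chac1 and Ifit1 were named after their values were seen. Alternatives changed the pairing, the arrays fitted and their weights, the filter, the scaling, how a probe set was picked, the variance prior and the threshold.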

Additional observations from a re-analysis of the deposited data

Results flagged for a closer look

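Among the named genes called in control cells, there were 3 in which the response of control cells and that of cells labelled Foxp1flox/del ran in opposite directions in every pair. Genes outside that set were not searched for this. For Spry1 the interaction, the IgM difference in Foxp1flox/del minus that in control cells, was -5.22 (limma adjusted p = 0.0027). Its unstimulated values were 2.62, 3.42 and 2.86 in control and 6.72, 6.91 and 6.15 in Foxp1flox/del cells, and with IgM they were 5.0, 6.26 and 4.40 against 3.67, 3.81 and 3.42. For Slamf1 the interaction was -1.79 (adjusted p = 0.042), with unstimulated values of 5.66, 6.20 and 6.34 in control and 8.57, 9.35 and 9.25 in Foxp1flox/del cells. Pdcd1lg2 had an interaction of -3.66 that did not pass (adjusted p = 0.17). Its control pairs differed by 2.91, 1.76 and 2.27 and its Foxp1flox/del pairs by -0.27, -0.56 and -3.21, the last resting on the Foxp1flox/del IgM array that stood apart from its group. Without that array its interaction was -2.85 (adjusted p = 0.011). In all 3 genes the unstimulated Foxp1flox/del cells lay above the unstimulated control cells.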

How the results depend on the processing

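No called difference of a named gene changed sign under the alternatives run, but the number of calls moved. Without the replicate block limma called 2729 genes (1220 higher, 1509 lower). The fit over all 12 arrays called 3274 (1439 and 1835) with the block and 1918 (812 and 1106) without it. With no filter on low values 3003 of 18193 genes were called (1377 and 1626), a test against a log2 difference of 1 called 934 (315 and 619), and the added 2-fold threshold left 1965 (779 and 1186). Leaving out each replicate in turn gave 4854 to 5110 calls, 2217 to 2341 higher and 2637 to 2769 lower. The fit over 11 arrays without the Foxp1flox/del IgM array that stands apart gave 5828. The other filters, scalings, variance models, array weights and a threshold of 0.01 gave 4392 to 6040. Centring on array medians moved the median difference from -0.04 to 0.03 and the share of calls that were higher from 46.3% to 52.2%, and turned the uncalled difference of Ccr7 from -0.03 to 0.05 and the median of the cytosolic ribosomal proteins from -0.07 to 0.01.

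Of 212 named genes 34 lost their call without the block, 53 without the filter and 71 in the test against a log2 difference of 1, and 12, 5 and 8 without replicate 1, 2 and 3. The genotype interaction called 1 gene without the block, 170 without that array, 8 without the filter, 1 at a threshold of 0.01 and 0 to 12 with a replicate left out. The causes of these shifts were not tested. Precision is limited by 3 pairs, and a difference that starts from or ends at values at or below 4 is not exact.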

Other observations

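Among motifs not described above, the EGR sequence GCGNGGGCG was present in 9 of the 21 immediate early transcription factor genes with matched promoter windows (42.9%). It was present in 12.4% of all tested genes, 12.4% of those that rose at least 2-fold and 11.2% of those that fell at least 2-fold. The CArG box was present in 14.3% of the same 21 genes and in 1.5% of all tested genes. The FOXO sequence GTAAACA was in 4.21% of genes that fell at least 2-fold, 2.21% of those that rose at least 2-fold and 3.18% of all tested genes. These shares are descriptions of letters in fixed windows, and those of the lists describe chosen genes and are no result of IgM.

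Gene length and response were only weakly related. Across 8954 genes with a known genomic span, the Spearman correlation of the log2 difference with span was -0.04, and median spans were 20.9 kb for genes that rose at least 2-fold, 25.6 kb for those that fell at least 2-fold and 22.8 kb for all tested genes.

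Probe sets of the same gene mostly moved the same way. Of 2394 genes with at least 2 called probe sets, 2354 had calls in 1 direction.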
